A study of Mus musculus with 10 samples.

Results

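The translation initiation and elongation factors are the proteins that assemble a ribosome on a messenger RNA, find its start codon and then move the ribosome along it. The genes described here are all those in the 3 deposited tables of mouse medulloblastoma cells whose symbol begins with Eif1 to Eif6, Eef1 or Eef2, without the eIF2 kinases and without pseudogene models. They were chosen by name alone, which gave 59 of the 13976 genes held by any table: 44 in all 3 tables, 13 in 2 and 2 in 1. Initiation begins when eIF2 brings the initiator tRNA to the small ribosomal subunit, which eIF3 and the eIF1 family hold in a scanning form. The eIF4F proteins bind the capped 5′ end and unwind it, and eIF5 and eIF5B complete the joining of the large subunit. In elongation eEF1A delivers each aminoacyl-tRNA and eEF2 moves the ribosome by a codon. The best known controls on this machinery are mTOR, acting through the 4E-binding proteins, and the stress kinases that act on eIF2.

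The cells were SMB56, a mouse medulloblastoma line of genotype Ptch+/- grown as neurospheres, and SMB56-shSufu, which carries in addition a short hairpin RNA against Sufu, the inhibitor of the Gli factors. Every group, controls included, has the Ptch+/- genotype, and the labels do not say whether the hairpin line is 1 clone. The 5 groups of 2 libraries each were SMB56 with DMSO, SMB56 with 0.1 µM THZ1, SMB56 with 1 µM GDC-0449, SMB56-shSufu with DMSO and SMB56-shSufu with 0.1 µM THZ1, all treated for 8 hours. THZ1 is a covalent inhibitor of the transcriptional kinase CDK7, and GDC-0449 (vismodegib) inhibits the hedgehog receptor component SMO; the series title places the lines as responsive and resistant to SMO inhibitors. The labels do not say that replicates came from separate cultures, so every p-value below reflects only how far the sequenced libraries differed, which can be technical variation.

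Libraries of the SMB56 THZ1 table held 10614268 to 13170421 counts. Those of the GDC-0449 table held 13131292 to 14986389 and those of the hairpin line 30100041 to 33254885. The first of these tables lists 10007 genes of which all but 8 had an adjusted p-value under 0.05 in the authors' deposited table, so it was selected on its outcome. Of the 59 factor genes 12 are not in it and no THZ1 value is given for them in SMB56. Below, a measured gene is one that the table in question holds, and absence from a table does not mean that a gene was not sequenced. Line, table and depth cannot be told apart in any comparison across the lines, and in bulk RNA fewer cells of a type cannot be told from less RNA per cell. Levels are given as CPM, which are counts scaled by the library total and by a trimmed-mean (TMM) factor for each library. Sufu stood at 72.3 and 67.6 CPM in SMB56 DMSO and at 23.7 and 24.7 in SMB56-shSufu DMSO. It was 59.5 and 56.5 CPM with GDC-0449, 151.5 and 159.4 with THZ1 in SMB56, and 115.3 and 107.8 with THZ1 in SMB56-shSufu, so the hairpin line held more Sufu counts under THZ1 than the parental line under DMSO. Of 12 markers of granule neuron progenitors and hedgehog signalling, 10 were in the SMB56 tables and 11 in the SMB56-shSufu table, with summed levels of 2752 to 3174 CPM under DMSO, 3359 to 3366 with GDC-0449 and 5959 to 6163 with THZ1. This sum mixes markers that went in different directions: in SMB56 Gli1, a direct hedgehog target, went from 168.0 and 163.5 CPM under DMSO to 11.3 and 13.4 with GDC-0449 and 34.5 and 36.7 with THZ1, while Zic1, a transcription factor of granule neurons, went from 891.4 and 891.0 to 1076 and 1089 with GDC-0449 and to 2503 and 2517 with THZ1. The other hedgehog markers did not all follow Gli1 with THZ1. In SMB56 Ptch1 went from 213.1 and 208.3 CPM to 85.6 and 85.2 with GDC-0449 but to 347.4 and 364.5 with THZ1. Mycn went from 352.5 and 349.8 to 227.6 and 214.9 with GDC-0449 and to 678.8 and 729.1 with THZ1. Gli2 was lower with both compounds. Of 4 astrocyte markers Gfap and Slc1a3 were in the SMB56 THZ1 table, with sums of 47.4 and 47.9 CPM under DMSO and 25.6 and 26.6 under THZ1, within which Gfap went from 1.18 and 1.2 to 12.5 and 12.7. The other tables held Slc1a3 alone, at 45.0 and 54.6 CPM under DMSO and 29.3 and 31.6 under THZ1 in SMB56-shSufu, and no listed microglial, endothelial or fibroblast marker was in any table. The part of these shifts in the results below was not tested.

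Folds below are edgeR log2 fold changes ± standard error, each on 2 libraries a group, adjusted over all genes of the comparison and called at an adjusted p under 0.05. They are relative to the other genes, because no spike-in fixes the amount of RNA per cell. With THZ1 this matters for every direction. On the trimmed-mean (TMM) scale used for the main values the median over all genes was -0.06 in SMB56 and 0.06 in SMB56-shSufu. It was -0.995 and -0.21 when libraries were scaled to their ribosomal protein counts, and -1.58 and -1.37 when scaled to their mitochondrial counts, which were 3.96% of shared-gene counts in either SMB56 DMSO library against 8.01% and 6.96% under THZ1. In SMB56-shSufu the mitochondrial share was 7.46% and 10.4% under DMSO and 16.2% and 16.1% under THZ1. Library size alone gave medians of -0.67 and -0.45, and deposited FPKM -0.82 and -0.69. "Rose" and "fell" therefore mean a called change relative to the other genes. Of the THZ1 calls, all 18 lower calls in SMB56 and all 14 in SMB56-shSufu kept their direction and call under library size, ribosomal protein and mitochondrial scaling. These scalings lower the folds of all genes against the main scale, so a lower call had to keep its direction. With DESeq2 size factors, where the all-gene median in SMB56 was -0.0066, all 18 lower calls there kept their direction and 16 their call. All higher calls but that of Eef1akmt3, a gene near the floor under DMSO, turned lower under mitochondrial scaling, and 13 of 20 in SMB56 under ribosomal protein scaling.

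By deposited FPKM, which the authors scaled to gene length so that genes can be compared, the factors spanned a wide range of levels. Eef1a1, the aminoacyl-tRNA carrier, came first in all 5 groups, at 2214 and 2249 FPKM in SMB56 DMSO. The translocase Eef2 followed with 483 and 482, the cap helicase Eif4a1 with 383 and 385, the hypusine-carrying factor Eif5a with 387 and 377 and the ribosome anti-association factor Eif6 with 328 and 335. Eif4a1 and Eif5a did not differ beyond their spread. At the other end of that group stood Eif4e3, a minor cap-binding relative of eIF4E (5.33 and 6.65 FPKM), the methyltransferase Eef2kmt (2.27 and 2.69) and, lowest of the 58 listed there, the methyltransferase Eef1akmt3 (0.153 and 0.203). Together the 44 genes in all tables took 2.11% to 2.96% of the shared-gene counts in every library. Reads of near-identical members (Eif1a and Eif1ax, Eif4a1 and Eif4a2, Eif5a and Eif5a2) and of processed copies of genes such as Eef1a1 may be shared between them; the treatment of such reads and of strand in the authors' counting is not stated in the labels, so their levels are uncertain to that extent.

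**Figure D1:**
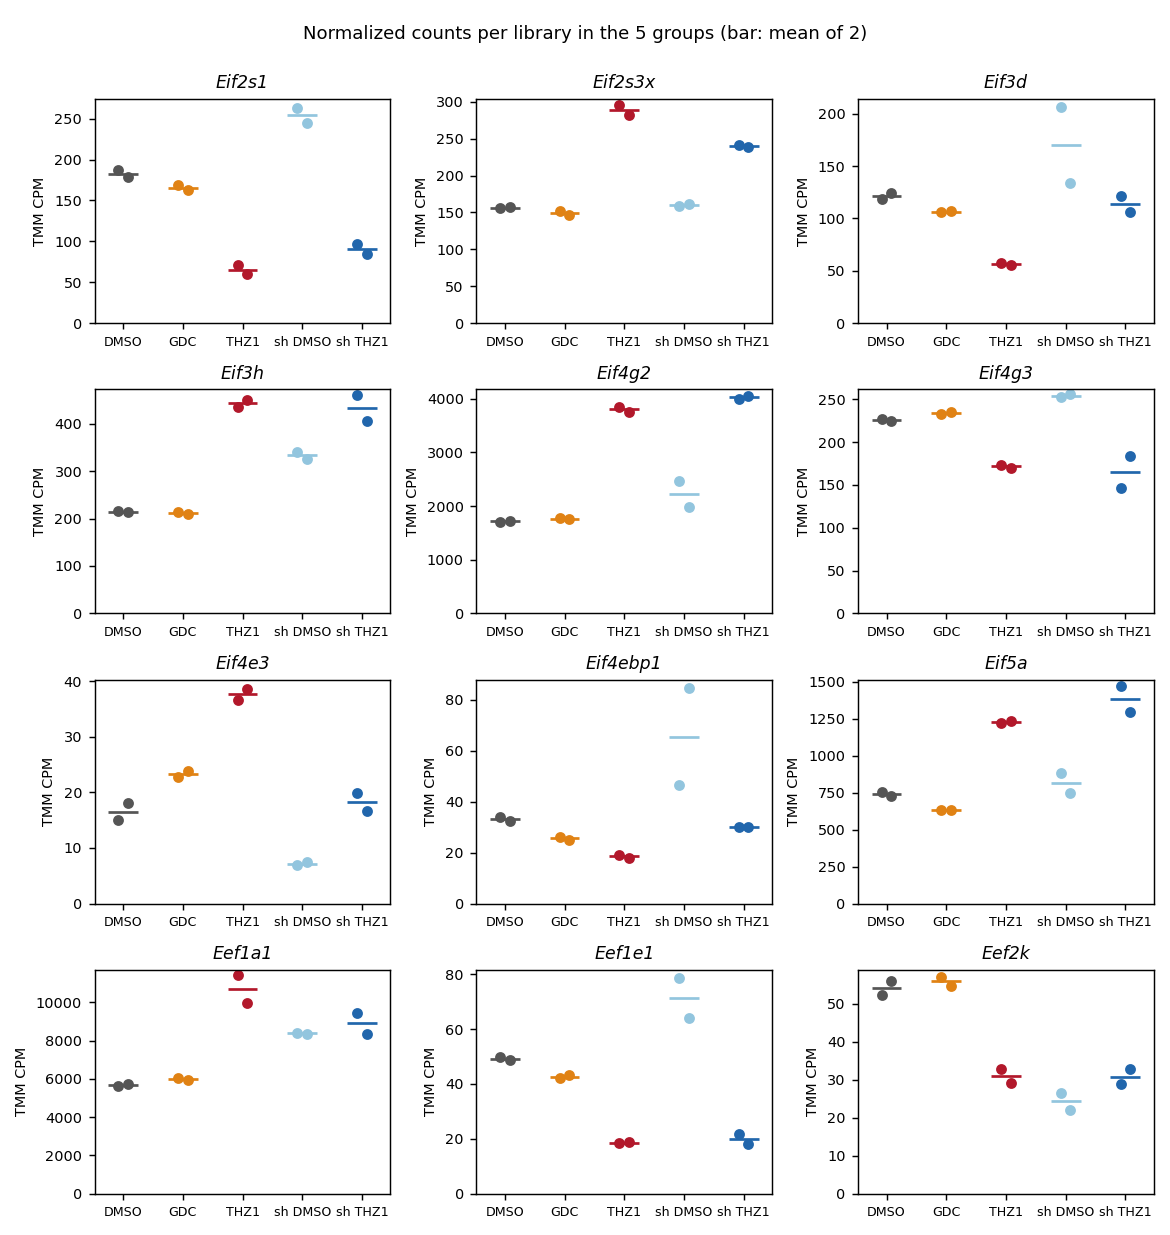
Normalized counts of 12 factor genes in each of the 10 libraries (points; y axis, TMM-scaled CPM from 0; bar, mean of 2) for SMB56 with DMSO, GDC-0449 and THZ1 and SMB56-shSufu (sh) with DMSO and THZ1. The THZ1 libraries lie below their DMSO libraries for Eif2s1, Eif3d, Eif4g3, Eif4ebp1 and Eef1e1 in both lines, and above them for Eif2s3x, Eif3h, Eif4g2, Eif4e3 and Eif5a, the latter a direction that mitochondrial scaling turns round.

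The promoters of these genes were read from RefSeq (build GRCm38.p6), as the 250 bases before and 50 after each annotated transcript start, for 45 of the factor genes. The motif CACGTG, the E-box that MYC and related factors are known to bind, was searched on both strands, on which it reads the same. It occurred in 12 of the 45 genes (26.7%) and in 1559 of 17492 protein-coding genes (8.91%). That background is matched neither on base composition nor on expression in these cells. A start of the kind that marks TOP mRNAs (C at the annotated start and then at least 4 pyrimidines) was found for 2 genes, Eif2s3x and Eif3f (4.44%, against 2.67% of all protein-coding genes). This search depends on the exact annotated base and misses a start that lies a few bases away. A gene not found by it, such as Eef1a1 or Eef2, may therefore still have such a start. Stretches of 60 bases are shown for the 4 cap-complex genes that hold CACGTG and for 3 genes called higher with THZ1 in both lines, Eif5a, Eif5a2 and Eef2. Among the motif genes not shown is Eef2k, which fell with THZ1 in SMB56. Each stretch reads 5′ to 3′ on the gene's strand with the motif in capitals.
Eif4e: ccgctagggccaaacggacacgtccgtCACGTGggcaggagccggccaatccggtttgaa
Eif4g1: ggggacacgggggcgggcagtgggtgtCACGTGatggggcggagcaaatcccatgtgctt
Eif4a1: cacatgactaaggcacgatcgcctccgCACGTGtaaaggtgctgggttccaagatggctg
Eif4h: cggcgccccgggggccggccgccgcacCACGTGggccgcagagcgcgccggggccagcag
Eif5a: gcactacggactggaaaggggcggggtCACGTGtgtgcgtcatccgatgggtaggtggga
Eif5a2: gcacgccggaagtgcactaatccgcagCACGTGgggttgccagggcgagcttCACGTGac
Eef2: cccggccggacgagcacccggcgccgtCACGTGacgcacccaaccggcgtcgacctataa
These lie at chr3:138527177-138527236 (plus strand), chr16:20672646-20672705 (plus), chr11:69672580-69672639 (minus), chr5:134639473-134639532 (minus), chr11:69921428-69921487 (minus), chr3:28781108-28781167 (plus) and chr10:81176561-81176620 (plus). The window of Eif5a2 holds the motif 2 times. Of the 12 genes with the motif, 8 were measured with THZ1 in SMB56, of which 4 were called higher and 2 lower; of the 27 measured genes without it, 9 were called higher and 13 lower. In SMB56-shSufu the counts were 5 higher and 2 lower of 12 with the motif, and 5 higher and 10 lower of 33 without it. With GDC-0449 they were 0 higher and 5 lower of 12, and 3 higher and 14 lower of 32. Of all genes tested, 45.6% were called higher and 46.3% lower with THZ1 in SMB56, 33.6% and 28.3% with THZ1 in SMB56-shSufu, and 18.9% and 17.4% with GDC-0449. These counts are a description, with no test.

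With THZ1, 20 of the 47 measured factor genes were called higher and 18 lower in SMB56, where 91.9% of all 9863 genes tested were called (45.6% higher, 46.3% lower). In SMB56-shSufu 15 of 58 were called higher and 14 lower, where 61.9% of 11886 genes were called (33.6% higher, 28.3% lower). The factors' median log2 fold change was -0.03 in SMB56 and -0.04 in SMB56-shSufu, beside the all-gene medians given above. Of the 46 genes measured in both lines, 13 were called higher in both, 13 lower in both and 0 in opposite directions. The same split was not counted over all 8204 genes measured with THZ1 in both lines. Whether this agreement is particular to the factor genes was therefore not tested. The split of calls depended on scale: it was 1 higher and 46 lower in SMB56 and 0 and 54 in SMB56-shSufu under mitochondrial scaling, and 3 and 35 in SMB56 and 4 and 19 in SMB56-shSufu under ribosomal protein scaling. Of all genes tested, 7289 of 9863 in SMB56 and 9139 of 11886 in SMB56-shSufu were called lower under mitochondrial scaling. By library size alone it was 14 and 29 in SMB56 and 1 and 33 in SMB56-shSufu, and with limma on FPKM 4 and 35 and 1 and 39. In SMB56-shSufu the split also depended on single libraries. The number called higher fell when either THZ1 library was left out, and rose when 1 of the DMSO libraries was left out. The SMB56-shSufu libraries varied more, with a common biological coefficient of variation of 13.4% against 3.03% in SMB56.

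**Figure D2:**
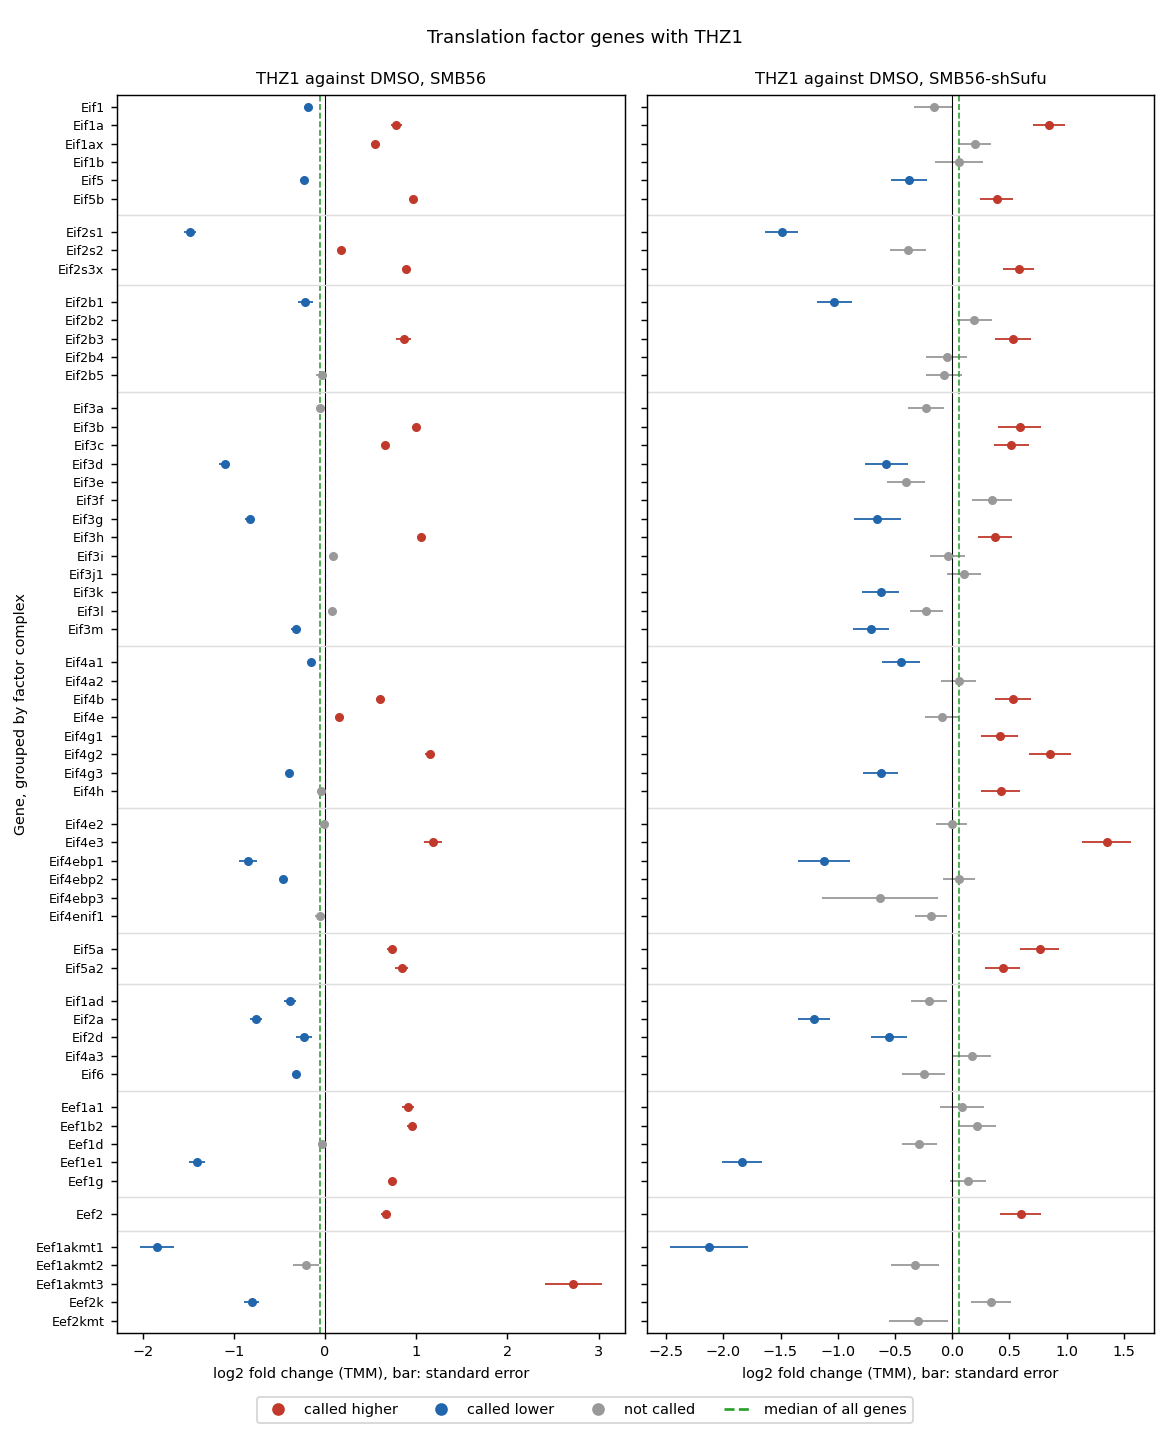
Log2 fold change (x axis, TMM scale) of each factor gene with THZ1 against DMSO in SMB56 (left) and SMB56-shSufu (right), grouped by complex; points are edgeR estimates, bars standard errors, colors the call, and the dashed line the median of all genes (-0.06 and 0.06). Members of 1 complex lie on both sides of the median in eIF2, eIF3 and eIF4F. They do so in the eEF1 group as well, where Eef1e1 alone lies below it in SMB56. A gene without a point is not held by the deposited table of that line, and the SMB56 table was selected on its outcome.

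Of the 3 subunits of eIF2, the tRNA carrier, 2 rose and 1 fell with THZ1 in SMB56. In SMB56-shSufu 1 rose, 1 fell and 1 was uncalled. Eif2s1 and Eif2s3x moved apart in both lines. Eif2s2 lay between them, with a small rise of 0.18 in SMB56 and an uncalled -0.39 in SMB56-shSufu. Eif2s1 (ENSMUSG00000021116), the alpha subunit that stress kinases phosphorylate, stood at 187 and 179 CPM in SMB56 under DMSO and 70.6 and 59.95 under THZ1. Levels in SMB56-shSufu were 264 and 244 CPM under DMSO and 96.5 and 84.2 under THZ1. Both THZ1 libraries of each line lay far below both of its DMSO libraries. The fold change was -1.48 ± 0.062 (edgeR adjusted p = 1.44e-15) in SMB56 and -1.49 ± 0.15 (edgeR adjusted p = 3.18e-06) in SMB56-shSufu, a fall under every scaling. Eif2s3x (ENSMUSG00000035150), the X-linked gamma subunit that holds GTP and the tRNA, went the other way, at 156 and 157 CPM in SMB56 under DMSO and 296 and 281 under THZ1. In the SMB56-shSufu line its levels were 159 and 161 CPM under DMSO and 241 and 238 under THZ1. Its fold change was 0.88 ± 0.044 (edgeR adjusted p = 3.22e-14) and 0.58 ± 0.14 (edgeR adjusted p = 0.00252), reversed under mitochondrial scaling in both lines, under ribosomal protein scaling in SMB56 and under limma on FPKM in SMB56-shSufu. The ratio of Eif2s3x to Eif2s1 counts within a library needs no scaling: it was 0.835 and 0.8801 in SMB56 DMSO, 0.902 and 0.903 with GDC-0449 and 4.19 and 4.695 under THZ1. The same ratio in the hairpin line was 0.604 and 0.659 under DMSO and 2.496 and 2.83 under THZ1. In both lines the ratios under THZ1 and under DMSO did not overlap. The pairs of genes in such ratios were chosen after their values had been seen.

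In eIF2B, the exchange factor that reloads eIF2 with GTP, the 3 subunits measured in SMB56 gave 1 higher, 1 lower and 1 uncalled gene, and the 5 in SMB56-shSufu 1 higher, 1 lower and 3 uncalled. Eif2b1, the alpha subunit of its regulatory core, stood at 35.3 and 37.3 CPM in SMB56 under DMSO and 30.6 and 31.99 under THZ1. For SMB56-shSufu the levels were 64.2 and 57.9 CPM under DMSO and 31.4 and 28.4 under THZ1. It fell in SMB56-shSufu, with -1.03 ± 0.15 (edgeR adjusted p = 9.25e-05), and by much less in SMB56, -0.22 ± 0.083 (edgeR adjusted p = 0.0185). Eif2b3, the gamma subunit, stood at 25.9 and 27.1 CPM in SMB56 under DMSO and 50.3 and 45.7 under THZ1. SMB56-shSufu gave 55.7 and 45.3 CPM under DMSO and 72.03 and 73.9 under THZ1. Its fold change was 0.86 ± 0.081 (edgeR adjusted p = 1.69e-09) and 0.53 ± 0.15 (edgeR adjusted p = 0.00918), reversed under mitochondrial scaling and limma on FPKM in both lines and under ribosomal protein scaling in SMB56. Its 2 libraries in each THZ1 group lay above both DMSO libraries of the same line. Without SMB56 DMSO replicate 2, Eif2b1 (-0.17, edgeR adjusted p = 0.14) lost its call. Leaving out SMB56 THZ1 replicate 1 ended the call of Eif2b1 (-0.18, edgeR adjusted p = 0.0916). The call of Eif2b3 (0.51, edgeR adjusted p = 0.0588) did not pass without SMB56-shSufu THZ1 replicate 2.

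Among the factors of scanning and start codon choice, 3 of 5 genes rose and 2 fell in SMB56, and 2 of 6 rose and 1 fell in SMB56-shSufu. Eif1a, an eIF1A gene, stood at 70.1 and 69.8 CPM in SMB56 under DMSO and 124 and 116 under THZ1. With the Sufu hairpin its levels were 62.6 and 58.9 CPM under DMSO and 116 and 103 under THZ1. Every THZ1 library lay above the DMSO libraries of its line. Its fold change was 0.78 ± 0.057 (edgeR adjusted p = 2.36e-11) and 0.85 ± 0.14 (edgeR adjusted p = 2.14e-04), reversed under mitochondrial scaling in both lines and under ribosomal protein scaling and limma on FPKM in SMB56. Its X-linked paralog Eif1ax rose in SMB56, with 0.55 ± 0.046 (edgeR adjusted p = 1.88e-10), reversed under library-size scaling, mitochondrial scaling, ribosomal protein scaling and limma on FPKM. In SMB56-shSufu its fold change was 0.20 ± 0.14 (edgeR adjusted p = 0.252). Eif5b, the GTPase of subunit joining, stood at 227 and 218 CPM in SMB56 under DMSO and 418 and 449.9 under THZ1. The hairpin line had 258 and 263 CPM under DMSO and 359 and 323 under THZ1. Its fold change was 0.96 ± 0.046 (edgeR adjusted p = 1.43e-14) and 0.39 ± 0.14 (edgeR adjusted p = 0.031), reversed under mitochondrial scaling in both lines and under library-size scaling and limma on FPKM in SMB56-shSufu. Eif5, which triggers GTP hydrolysis on eIF2 at the start codon, fell, with -0.24 ± 0.043 (edgeR adjusted p = 2.61e-05) and -0.38 ± 0.15 (edgeR adjusted p = 0.0485). Eif1, the guard against wrong start codons, fell in SMB56 with -0.19 ± 0.043 (edgeR adjusted p = 3.12e-04); in SMB56-shSufu its value was -0.16 ± 0.17 (edgeR adjusted p = 0.418). In SMB56-shSufu some of these calls depended on 1 library. When SMB56-shSufu DMSO replicate 1 was left out, Eif5 (-0.22, edgeR adjusted p = 0.201) did not pass. Eif5 (-0.43, edgeR adjusted p = 0.128) and Eif5b (0.31, edgeR adjusted p = 0.248) went uncalled without SMB56-shSufu THZ1 replicate 1. Omitting SMB56-shSufu THZ1 replicate 2 ended the calls of Eif5 (-0.33, edgeR adjusted p = 0.249) and Eif5b (0.46, edgeR adjusted p = 0.0777).

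The largest factor, eIF3, is the scaffold that binds the small subunit and receives the mRNA. Of its 9 subunits measured in SMB56, 3 rose, 3 fell and 3 were uncalled with THZ1; of 13 in SMB56-shSufu, 3 rose, 4 fell and 6 were uncalled. Eif3d, the subunit that in human cells can bind a cap itself, stood at 119 and 124 CPM in SMB56 under DMSO and 57.4 and 55.5 under THZ1. The SMB56-shSufu libraries held 206 and 133 CPM under DMSO and 122 and 107 under THZ1. In SMB56 both THZ1 libraries lay far below the DMSO level, while the SMB56-shSufu DMSO libraries differed widely from each other. Its fold change was -1.10 ± 0.060 (edgeR adjusted p = 1.49e-13) and -0.58 ± 0.19 (edgeR adjusted p = 0.0167). Eif3h, an MPN-domain subunit, stood at 215 and 213 CPM in SMB56 under DMSO and 436 and 451 under THZ1. Levels in SMB56-shSufu were 340.4 and 327 CPM under DMSO and 459.7 and 406 under THZ1. The fold change was 1.05 ± 0.043 (edgeR adjusted p = 8.42e-16) and 0.38 ± 0.15 (edgeR adjusted p = 0.0407). Eif3b, a scaffold subunit of the core, stood at 402 and 394 CPM in SMB56 under DMSO and 776 and 813 under THZ1. In the SMB56-shSufu line its levels were 538 and 360.0 CPM under DMSO and 704 and 647 under THZ1. It gave 0.996 ± 0.046 (edgeR adjusted p = 6.48e-15) and 0.59 ± 0.19 (edgeR adjusted p = 0.0155). The rise of Eif3h was reversed under mitochondrial scaling in both lines and under library-size scaling and limma on FPKM in SMB56-shSufu, and that of Eif3b under mitochondrial scaling in both lines and under limma on FPKM in SMB56-shSufu. Eif3m, a PCI-domain subunit, fell, with -0.32 ± 0.056 (edgeR adjusted p = 1.42e-05) and -0.71 ± 0.16 (edgeR adjusted p = 0.00181). The ratio of Eif3h to Eif3d counts rose from 1.81 and 1.72 to 7.59 and 8.12 in SMB56 and from 1.65 and 2.45 to 3.78 and 3.81 in SMB56-shSufu, with no overlap between treatments in either line. Without SMB56-shSufu DMSO replicate 2, Eif3b (0.33, edgeR adjusted p = 0.0729) and Eif3h (0.35, edgeR adjusted p = 0.0514) lost their calls. Leaving out SMB56-shSufu THZ1 replicate 1 ended the calls of Eif3b (0.53, edgeR adjusted p = 0.0662) and Eif3h (0.28, edgeR adjusted p = 0.304). The call of Eif3d (-0.23, edgeR adjusted p = 0.181) did not pass without SMB56-shSufu DMSO replicate 1. When SMB56-shSufu THZ1 replicate 2 was left out, Eif3d (-0.48, edgeR adjusted p = 0.0822) and Eif3h (0.46, edgeR adjusted p = 0.0824) did not pass.

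In the cap-binding complex eIF4F and its helpers, 3 of 6 genes rose and 2 fell in SMB56, and 4 of 8 rose and 2 fell in SMB56-shSufu. The scaffolds diverged. Eif4g2, a relative that lacks the eIF4E-binding part and serves cap-independent initiation, stood at 1703 and 1727 CPM in SMB56 under DMSO and 3843 and 3762 under THZ1. For SMB56-shSufu the levels were 2465 and 1983 CPM under DMSO and 3993 and 4057 under THZ1. Its fold change was 1.15 ± 0.053 (edgeR adjusted p = 8.36e-15) and 0.86 ± 0.18 (edgeR adjusted p = 0.00126), reversed under mitochondrial scaling in both lines. Eif4g3, a canonical scaffold, stood at 227 and 225 CPM in SMB56 under DMSO and 174 and 170.3 under THZ1. SMB56-shSufu gave 253 and 256 CPM under DMSO and 146 and 184 under THZ1. It fell, with -0.39 ± 0.044 (edgeR adjusted p = 2.89e-08) and -0.62 ± 0.15 (edgeR adjusted p = 0.00312). Within a library the ratio of Eif4g2 to Eif4g3 counts was 7.49 and 7.68 in SMB56 DMSO, 22.1 and 22.1 with THZ1, 9.76 and 7.74 in SMB56-shSufu DMSO and 27.3 and 22.1 with THZ1, with both lines showing the same order of groups. Eif4g1, the main scaffold, is absent from the SMB56 THZ1 table, which was selected on its outcome. In SMB56-shSufu Eif4g1 stood at 789.6 and 682 CPM with DMSO and 933 and 1031 with THZ1. Its fold change there was 0.42 ± 0.16 (edgeR adjusted p = 0.0379), reversed under library-size scaling, mitochondrial scaling and limma on FPKM. Eif4e, the cap-binding subunit, stood at 155 and 164 CPM in SMB56 under DMSO and 174 and 183 under THZ1. With the Sufu hairpin its levels were 242 and 206 CPM under DMSO and 222 and 199 under THZ1. Its small change in SMB56 of 0.16 ± 0.048 (edgeR adjusted p = 0.00419) was reversed under TMM over the genes of the fit, library-size scaling, mitochondrial scaling, ribosomal protein scaling and limma on FPKM, and in SMB56-shSufu it was -0.091 ± 0.15 (edgeR adjusted p = 0.611). The helicase Eif4a1 fell, with -0.15 ± 0.047 (edgeR adjusted p = 0.00434) and -0.45 ± 0.17 (edgeR adjusted p = 0.034), while its paralog Eif4a2 in SMB56-shSufu gave 0.058 ± 0.15 (edgeR adjusted p = 0.76). Eif4a1 (-0.15, edgeR adjusted p = 0.0555) and Eif4e (0.12, edgeR adjusted p = 0.0918) went uncalled without SMB56 DMSO replicate 1. Omitting SMB56-shSufu DMSO replicate 1 ended the call of Eif4a1 (-0.33, edgeR adjusted p = 0.0659). Without SMB56-shSufu THZ1 replicate 1, Eif4a1 (-0.58, edgeR adjusted p = 0.0521), Eif4g1 (0.49, edgeR adjusted p = 0.0866) and Eif4g3 (-0.47, edgeR adjusted p = 0.0819) lost their calls. Leaving out SMB56-shSufu THZ1 replicate 2 ended the calls of Eif4a1 (-0.32, edgeR adjusted p = 0.279) and Eif4g1 (0.34, edgeR adjusted p = 0.23). The call of Eif4g1 (0.31, edgeR adjusted p = 0.0919) did not pass without SMB56-shSufu DMSO replicate 2.

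Among the genes that compete with or replace eIF4E, 1 of 5 rose and 2 fell in SMB56, and 1 of 6 rose and 1 fell in SMB56-shSufu. Eif4e3 was low, at 14.95 and 18.1 CPM in SMB56 under DMSO and 36.7 and 38.7 under THZ1. The hairpin line had 6.89 and 7.398 CPM under DMSO and 19.8 and 16.7 under THZ1. Every THZ1 library lay above the DMSO libraries of its line. The fold change was 1.19 ± 0.10 (edgeR adjusted p = 3.55e-10) and 1.35 ± 0.21 (edgeR adjusted p = 1.36e-04), reversed under mitochondrial scaling in both lines. Eif4ebp1, the binding protein that sequesters eIF4E until mTORC1 phosphorylates it, stood at 34.1 and 32.5 CPM in SMB56 under DMSO and 19.1 and 17.9 under THZ1. The SMB56-shSufu libraries held 46.6 and 84.6 CPM under DMSO and 30.2 and 30.2 under THZ1. It fell, with -0.84 ± 0.096 (edgeR adjusted p = 3.68e-08) and -1.12 ± 0.23 (edgeR adjusted p = 9.32e-04); the SMB56-shSufu DMSO libraries differed from each other, and without DMSO replicate 2 the value there was -0.62, still called by edgeR. Its paralog Eif4ebp2 stood at 316 and 309.8 CPM in SMB56 under DMSO and 222 and 232 under THZ1. Levels in SMB56-shSufu were 174 and 183 CPM under DMSO and 179 and 193 under THZ1. It fell in SMB56 with -0.46 ± 0.044 (edgeR adjusted p = 1.70e-09) and gave 0.059 ± 0.14 (edgeR adjusted p = 0.728) in SMB56-shSufu. Eif4e2, the cap-binding repressor 4EHP, was not called in either line, with -0.013 ± 0.057 (edgeR adjusted p = 0.825) and -0.0049 ± 0.14 (edgeR adjusted p = 0.978). Eif4ebp3 was held only by the SMB56-shSufu table, at 1.15 and 1.58 CPM with DMSO and 1.16 and 0.584 with THZ1, -0.63 ± 0.51 (edgeR adjusted p = 0.299).

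**Figure D3:**
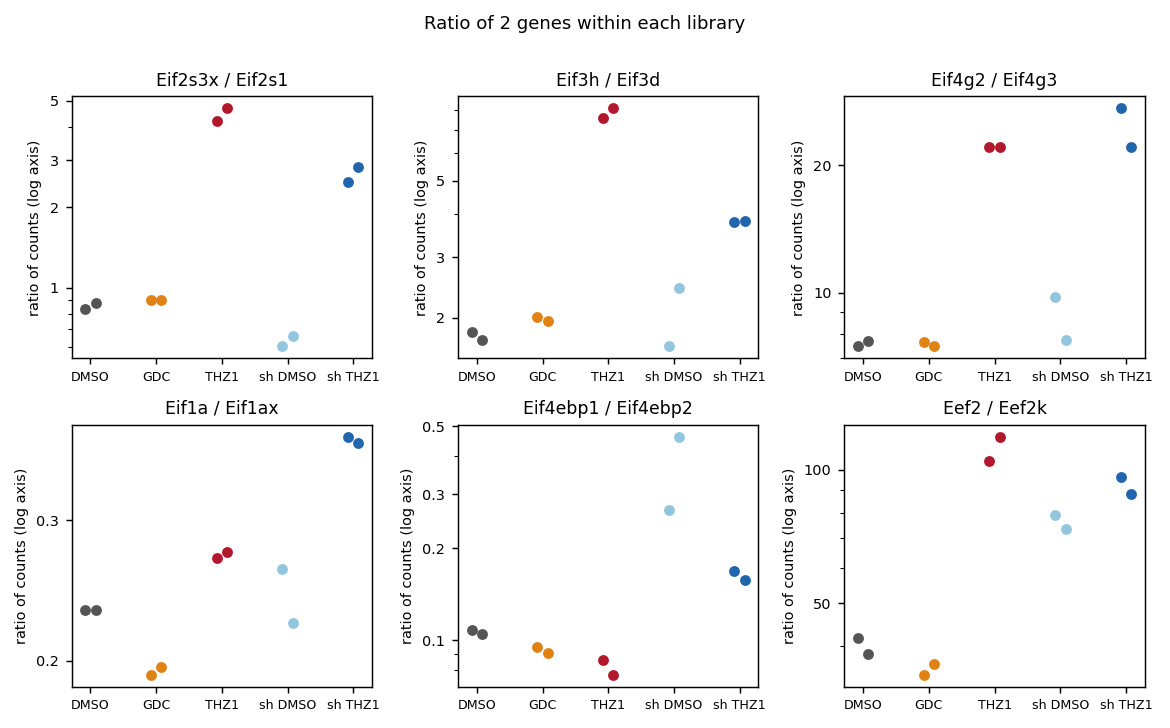
Ratio of the counts of 2 factor genes within each library (points; y axis logarithmic) for 6 pairs in the 5 groups. The Eif2s3x to Eif2s1 ratio is 0.604 to 0.903 in the 6 libraries without THZ1 and 2.496 to 4.70 in the 4 with it, and such ratios do not depend on how libraries are scaled.

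Both genes of eIF5A, the factor that carries hypusine and helps the ribosome past difficult stretches, were called higher with THZ1 in both lines. Eif5a stood at 755 and 729 CPM in SMB56 under DMSO and 1223 and 1237 under THZ1. In the SMB56-shSufu line its levels were 885 and 747 CPM under DMSO and 1473 and 1299 under THZ1. The fold change was 0.73 ± 0.047 (edgeR adjusted p = 2.43e-12) and 0.76 ± 0.17 (edgeR adjusted p = 0.00154), reversed under mitochondrial scaling and limma on FPKM in both lines and under ribosomal protein scaling in SMB56. Eif5a2, the scarcer paralog, stood at 53.99 and 49.4 CPM in SMB56 under DMSO and 95.7 and 89.04 under THZ1. For SMB56-shSufu the levels were 45.4 and 52.02 CPM under DMSO and 70.00 and 62.3 under THZ1. Its log2 fold change was 0.84 ± 0.067 (edgeR adjusted p = 9.75e-11) and 0.44 ± 0.15 (edgeR adjusted p = 0.0226), reversed under mitochondrial scaling and limma on FPKM in both lines, under ribosomal protein scaling in SMB56 and under library-size scaling in SMB56-shSufu. No THZ1 library overlapped the DMSO libraries of its line for either gene. When SMB56-shSufu DMSO replicate 1 was left out, Eif5a2 (0.35, edgeR adjusted p = 0.052) did not pass. Eif5a2 (0.36, edgeR adjusted p = 0.203) went uncalled without SMB56-shSufu THZ1 replicate 1. Omitting SMB56-shSufu THZ1 replicate 2 ended the call of Eif5a2 (0.52, edgeR adjusted p = 0.0536).

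Of the other Eif genes, all 4 measured in SMB56 fell and 2 of 5 fell in SMB56-shSufu. Eif2a, a factor distinct from eIF2 that can bring initiator tRNA without GTP, stood at 90.5 and 87.8 CPM in SMB56 under DMSO and 54.4 and 51.01 under THZ1. SMB56-shSufu gave 119 and 120.1 CPM under DMSO and 53.6 and 50.2 under THZ1. It fell, with -0.76 ± 0.065 (edgeR adjusted p = 3.81e-10) and -1.20 ± 0.14 (edgeR adjusted p = 1.21e-05). Each line's THZ1 libraries lay well below its DMSO libraries. Eif2d, a factor of tRNA delivery and ribosome recycling, fell less, with -0.23 ± 0.086 (edgeR adjusted p = 0.0157) and -0.55 ± 0.15 (edgeR adjusted p = 0.00741). Eif4a3, the helicase of the exon junction complex that shares the eIF4A name, is absent from the outcome-selected SMB56 THZ1 table. In SMB56-shSufu it stood at 369 and 277 CPM with DMSO and 385 and 343 with THZ1, 0.17 ± 0.17 (edgeR adjusted p = 0.384). Without SMB56 DMSO replicate 2, Eif2d (-0.12, edgeR adjusted p = 0.291) lost its call. Leaving out SMB56 THZ1 replicate 1 ended the call of Eif2d (-0.18, edgeR adjusted p = 0.1). The call of Eif2d (-0.497, edgeR adjusted p = 0.0853) did not pass without SMB56-shSufu THZ1 replicate 1.

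In elongation, 3 of the 5 genes of the eEF1 group rose in SMB56, and the 1 that fell was Eef1e1, described below. Eef1a1 stood at 5655 and 5720 CPM in SMB56 under DMSO and 11408 and 9968 under THZ1. With the Sufu hairpin its levels were 8415 and 8345 CPM under DMSO and 9454 and 8361 under THZ1. It rose in SMB56, with 0.91 ± 0.069 (edgeR adjusted p = 4.17e-11), reversed under mitochondrial scaling and ribosomal protein scaling, and gave 0.088 ± 0.19 (edgeR adjusted p = 0.706) in SMB56-shSufu, where its libraries overlapped. Eef1b2, a nucleotide exchange subunit, stood at 369 and 349.8 CPM in SMB56 under DMSO and 729 and 657 under THZ1. The hairpin line had 385 and 367 CPM under DMSO and 503 and 372 under THZ1. The fold change was 0.95 ± 0.051 (edgeR adjusted p = 1.05e-13) in SMB56, reversed under mitochondrial scaling, and 0.22 ± 0.17 (edgeR adjusted p = 0.27) in SMB56-shSufu. Eef1e1, a small member of the family that sits in the aminoacyl-tRNA synthetase complex, stood at 49.8 and 48.6 CPM in SMB56 under DMSO and 18.3 and 18.9 under THZ1. The SMB56-shSufu libraries held 78.5 and 63.96 CPM under DMSO and 21.8 and 18.1 under THZ1. It fell, with -1.40 ± 0.086 (edgeR adjusted p = 1.18e-12) and -1.84 ± 0.17 (edgeR adjusted p = 2.56e-06), with a wide gap between treatments in both lines. Over the 5 eEF1 genes, 3 rose and 1 fell in SMB56, and Eef1e1 alone was called in SMB56-shSufu.

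The translocase Eef2 stood at 2182.5 and 2154 CPM in SMB56 under DMSO and 3427 and 3474 under THZ1. Levels in SMB56-shSufu were 2108 and 1625 CPM under DMSO and 2770 and 2880 under THZ1. It changed by 0.67 ± 0.053 (edgeR adjusted p = 8.47e-11) in SMB56 and 0.60 ± 0.18 (edgeR adjusted p = 0.0121) in SMB56-shSufu, reversed under mitochondrial scaling and limma on FPKM in both lines and under ribosomal protein scaling in SMB56. Its kinase Eef2k, which phosphorylates eEF2 and slows elongation, stood at 52.4 and 56.1 CPM in SMB56 under DMSO and 32.8 and 29.2 under THZ1. In the SMB56-shSufu line its levels were 26.6 and 22.1 CPM under DMSO and 28.8 and 32.7 under THZ1. It fell in SMB56, with -0.80 ± 0.081 (edgeR adjusted p = 4.60e-09), and gave 0.34 ± 0.17 (edgeR adjusted p = 0.107) in SMB56-shSufu, where it was already lower under DMSO. Eef1akmt1, an eEF1A lysine methyltransferase, stood at 14.7 and 12.8 CPM in SMB56 under DMSO and 3.87 and 3.78 under THZ1. For SMB56-shSufu the levels were 19.3 and 16.5 CPM under DMSO and 5.91 and 2.23 under THZ1. It had the lowest fold change of all factor genes in both lines, with -1.84 ± 0.18 (edgeR adjusted p = 4.14e-09) and -2.13 ± 0.34 (edgeR adjusted p = 1.48e-04). Eef1akmt3, another such enzyme, was at 0.623 and 0.931 CPM in SMB56 DMSO and 4.78 and 5.67 with THZ1, 2.72 ± 0.31 (edgeR adjusted p = 3.88e-08). It was the only rise in SMB56 that mitochondrial scaling did not turn. Its DMSO level was near the floor, and only the SMB56 THZ1 table, which was selected on its outcome, held it. This rise therefore cannot be read as firmer than the others. When SMB56-shSufu THZ1 replicate 2 was left out, Eef2 (0.57, edgeR adjusted p = 0.0552) did not pass.

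Whether the THZ1 effect differed between the lines was tested as an interaction on the 8204 genes in both THZ1 tables. The SMB56 THZ1 table had been selected on its outcome, while 6771 of 12057 genes in the SMB56-shSufu table had an authors' adjusted p-value under 0.05. The genes tested were thus chosen on the THZ1 effect in SMB56, which limits every count and median of this comparison. Of the 46 factor genes 2 had a more positive and 8 a more negative effect in SMB56-shSufu, where 18.3% of all genes were called (9.73% more positive, 8.56% more negative). The factors' median difference was -0.24 and that of all genes 0.01. The factors' median was -0.13 without SMB56-shSufu DMSO replicate 1, -0.16 without SMB56-shSufu THZ1 replicate 2 and 0.43 under ribosomal protein scaling, where that of all genes was 0.67. By complex, 3 of the 5 eEF1 genes were more negative, and none of the 6 cap-complex genes was called by edgeR. The THZ1 effect on Eef1a1 differed, by -0.82 ± 0.17 (edgeR adjusted p = 0.0129) and that on Eef1b2 by -0.73 ± 0.19 (edgeR adjusted p = 0.0249). Eif2b1 differed, by -0.82 ± 0.16 (edgeR adjusted p = 0.00945) and Eif3h by -0.67 ± 0.13 (edgeR adjusted p = 0.00908). On the positive side stood Eef2k with 1.14 ± 0.19 (edgeR adjusted p = 0.00573) and Eif4ebp2 with 0.52 ± 0.12 (edgeR adjusted p = 0.0172). Eif3d and Eif4h, with 0.53 ± 0.24 (edgeR adjusted p = 0.151) and 0.46 ± 0.18 (edgeR adjusted p = 0.0948), were not called. The list did not hold up to changes of scale or libraries: the counts were 20 more positive and 0 more negative under ribosomal protein scaling, where 4470 of all 8204 genes were called more positive, 1 and 0 under mitochondrial scaling, 0 or 1 more negative without any 1 of the 4 SMB56 libraries, and 18 more negative without SMB56-shSufu DMSO replicate 2. They were 5 more negative and 1 more positive without SMB56-shSufu THZ1 replicate 2, and 6 more positive without SMB56-shSufu DMSO replicate 1. Of the 6 called genes named here Eef2k kept its call whichever library was left out. Eif2b1 (-0.78, edgeR adjusted p = 0.061), Eif3h (-0.68, edgeR adjusted p = 0.0589), Eif4ebp2 (0.51, edgeR adjusted p = 0.0988), Eef1a1 (-0.81, edgeR adjusted p = 0.0776) and Eef1b2 (-0.77, edgeR adjusted p = 0.084) went uncalled without SMB56 DMSO replicate 1. Omitting SMB56 THZ1 replicate 1 ended the calls of Eif2b1 (-0.85, edgeR adjusted p = 0.0526), Eif3h (-0.70, edgeR adjusted p = 0.0546), Eif4ebp2 (0.49, edgeR adjusted p = 0.102), Eef1a1 (-0.72, edgeR adjusted p = 0.0819) and Eef1b2 (-0.65, edgeR adjusted p = 0.124). Without SMB56 THZ1 replicate 2, Eif2b1 (-0.78, edgeR adjusted p = 0.0547), Eif3h (-0.65, edgeR adjusted p = 0.0591), Eif4ebp2 (0.56, edgeR adjusted p = 0.0744) and Eef1b2 (-0.80, edgeR adjusted p = 0.0752) lost their calls. Leaving out SMB56 DMSO replicate 2 ended the calls of Eif3h (-0.67, edgeR adjusted p = 0.0576), Eif4ebp2 (0.54, edgeR adjusted p = 0.0863), Eef1a1 (-0.83, edgeR adjusted p = 0.072) and Eef1b2 (-0.69, edgeR adjusted p = 0.109). The calls of Eif4ebp2 (0.47, edgeR adjusted p = 0.0502) and Eef1b2 (-0.53, edgeR adjusted p = 0.053) did not pass without SMB56-shSufu THZ1 replicate 2.

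**Figure D4:**
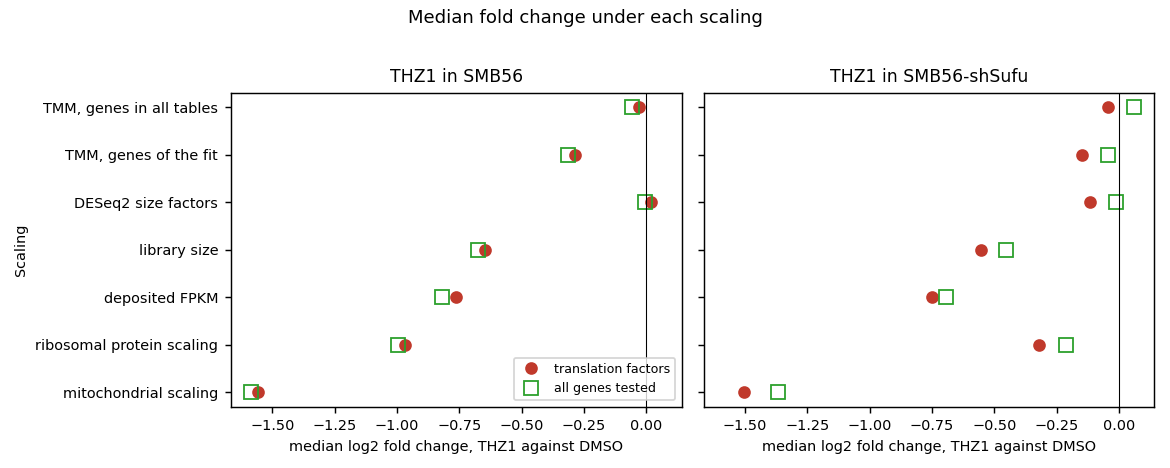
Median log2 fold change (x axis) with THZ1 against DMSO over the factor genes (filled circles) and over all genes tested (open squares) in SMB56 (left) and SMB56-shSufu (right) under 7 ways of scaling the libraries (y axis). The factors' median moves with that of all genes, from -0.03 on the main scale to -1.56 under mitochondrial scaling in SMB56 and from -0.04 to -1.502 in SMB56-shSufu.

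GDC-0449, which blocks hedgehog signalling at SMO, gave small and mostly downward changes. Of 55 measured factor genes 4 were called higher and 23 lower, where 36.3% of all 10008 genes were called (18.9% higher, 17.4% lower). Their median log2 fold change was -0.09, that of all genes 0.00014. Eif2b2, the beta subunit of eIF2B, stood at 62.99 and 63.6 CPM with DMSO and 47.1 and 50.1 with GDC-0449, -0.38 ± 0.060 (edgeR adjusted p = 7.87e-06). Eif4ebp1 stood at 34.1 and 32.5 CPM with DMSO and 26.1 and 24.96 with GDC-0449, -0.38 ± 0.077 (edgeR adjusted p = 2.76e-04), and Eif3b at 402 and 394 CPM with DMSO and 317 and 307 with GDC-0449, -0.35 ± 0.033 (edgeR adjusted p = 9.22e-10). Eif4g1, the cap scaffold, stood at 829 and 834 CPM with DMSO and 675 and 663 with GDC-0449, -0.31 ± 0.030 (edgeR adjusted p = 1.43e-09). In each of these 4 genes both treated libraries lay below both controls. They were named for having the lowest folds, so this separation follows in part from the choice.

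Among paralogs, Eif4g1 fell with GDC-0449 while Eif4g2 gave 0.044 ± 0.029 (edgeR adjusted p = 0.233) and Eif4g3 0.051 ± 0.034 (edgeR adjusted p = 0.246). Eif5a fell, with -0.23 ± 0.031 (edgeR adjusted p = 1.02e-06), and Eif5a2 gave -0.024 ± 0.066 (edgeR adjusted p = 0.785). The eIF1A gene Eif1a fell, with -0.29 ± 0.055 (edgeR adjusted p = 1.22e-04), and Eif1ax gave -0.040 ± 0.033 (edgeR adjusted p = 0.345). Eif4e3, the minor cap-binding gene, rose from 14.95 and 18.1 CPM to 22.8 and 23.9, 0.49 ± 0.099 (edgeR adjusted p = 2.15e-04). Other calls in that direction were Eef1akmt2, an eEF1A methyltransferase, with 0.27 ± 0.10 (edgeR adjusted p = 0.0434), Eif3m with 0.13 ± 0.043 (edgeR adjusted p = 0.0233) and Eef1a1 with 0.071 ± 0.027 (edgeR adjusted p = 0.0391). Eif3f gave 0.093 ± 0.038 (edgeR adjusted p = 0.0551). Mitochondrial scaling reversed Eif3m and Eef1a1. When SMB56 DMSO replicate 1 was left out, Eef1akmt2 (0.14, edgeR adjusted p = 0.425) and Eef1a1 (0.063, edgeR adjusted p = 0.259) did not pass. Eef1akmt2 (0.24, edgeR adjusted p = 0.182), Eif3m (0.079, edgeR adjusted p = 0.281) and Eef1a1 (0.058, edgeR adjusted p = 0.102) went uncalled without SMB56 GDC-0449 replicate 1. Omitting SMB56 GDC-0449 replicate 2 ended the call of Eef1akmt2 (0.30, edgeR adjusted p = 0.088). Without SMB56 DMSO replicate 2, Eif3m (0.089, edgeR adjusted p = 0.203) and Eef1a1 (0.079, edgeR adjusted p = 0.142) lost their calls. Replicates in this comparison lay close together, with a common biological coefficient of variation of 2.29%. Mitochondrial scaling gave 1 higher and 41 lower, beside 485 higher and 3736 lower of all 10008 genes. When all 10 libraries shared 1 estimate of the spread, edgeR called 0 of 44 factor genes higher and 0 lower, and 2% of all 7244 genes (0.525% higher, 1.48% lower). At an unadjusted edgeR p under 0.05 that fit had 1 factor gene higher and 4 lower of 44, beside 1142 of all 7244 genes in either direction. DESeq2 on the GDC-0449 table alone called 1 higher and 19 lower of 55, beside 681 higher and 978 lower of all 10008 genes. With limma on FPKM 0 were called higher and 5 lower, beside 242 higher and 382 lower of all 10008 genes.

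THZ1 and GDC-0449 were compared with the same SMB56 DMSO libraries, so their folds are given side by side only. For Eif4e3 they were 1.19 ± 0.10 with THZ1 and 0.49 ± 0.099 with GDC-0449. For Eif4ebp1 they were -0.84 ± 0.096 and -0.38 ± 0.077, for Eif3b 0.996 ± 0.046 and -0.35 ± 0.033, and for Eif5a 0.73 ± 0.047 and -0.23 ± 0.031. Eif4ebp1 fell with both compounds. The THZ1 rises of Eif4e3, Eif3b and Eif5a were reversed under mitochondrial scaling, to -0.34, -0.52 and -0.79, while the rise of Eif4e3 with GDC-0449 was not.

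Under DMSO the factor genes stood mostly higher in SMB56-shSufu than in SMB56. Of 55 genes 30 were called higher and 4 lower, where 51.2% of all 9719 genes were called (26% higher, 25.2% lower). Their median difference was 0.31 and that of all genes 0.01. It was 0.197 without SMB56-shSufu DMSO replicate 1, and 0.13 under ribosomal protein scaling, where that of all genes was -0.17. Eif4ebp1 stood at 34.1 and 32.5 CPM in SMB56 and 46.6 and 84.6 in SMB56-shSufu, 0.98 ± 0.22 (edgeR adjusted p = 0.00557), or 0.48 without SMB56-shSufu DMSO replicate 2. Eif2b3 stood at 25.9 and 27.1 CPM in SMB56 and 55.7 and 45.3 in the hairpin line, 0.93 ± 0.11 (edgeR adjusted p = 2.00e-04), and Eef1d, an eEF1 exchange subunit, at 214 and 209 CPM in SMB56 and 422 and 363 in the hairpin line, 0.89 ± 0.10 (edgeR adjusted p = 1.55e-04). The small eIF3 subunit Eif3k stood at 138 and 131 CPM in SMB56 and 217 and 251 in the hairpin line, 0.80 ± 0.12 (edgeR adjusted p = 6.93e-04). No library of either line overlapped the other line for these 4 genes. As they were named for the highest folds, this too follows in part from the choice.

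Lower in SMB56-shSufu stood Eif4e3, at 14.95 and 18.1 CPM in SMB56 and 6.89 and 7.398 in SMB56-shSufu, -1.21 ± 0.16 (edgeR adjusted p = 2.48e-04). The kinase Eef2k stood at 52.4 and 56.1 CPM in SMB56 and 26.6 and 22.1 in the hairpin line, -1.16 ± 0.12 (edgeR adjusted p = 7.20e-05) and Eif4ebp2 at 316 and 309.8 CPM in SMB56 and 174 and 183 in the hairpin line, -0.81 ± 0.079 (edgeR adjusted p = 5.53e-05). Eif1ax was the other lower call, with -0.26 ± 0.086 (edgeR adjusted p = 0.0299). Leaving out SMB56 DMSO replicate 1 ended the call of Eif1ax (-0.26, edgeR adjusted p = 0.148). The call of Eif1ax (-0.27, edgeR adjusted p = 0.137) did not pass without SMB56 DMSO replicate 2. When SMB56 GDC-0449 replicate 1 was left out, Eif1ax (-0.26, edgeR adjusted p = 0.0689) did not pass. Eif1ax (-0.26, edgeR adjusted p = 0.0689) went uncalled without SMB56 GDC-0449 replicate 2. Omitting SMB56-shSufu DMSO replicate 1 ended the call of Eif1ax (-0.19, edgeR adjusted p = 0.054). The paralogs Eif4ebp1 and Eif4ebp2 differed between the lines in opposite directions, and the ratio of their counts was 0.108 and 0.105 in SMB56 and 0.267 and 0.463 in SMB56-shSufu. Mitochondrial transcripts took 3.96% of shared-gene counts in either SMB56 DMSO library, and 7.46% and 10.4% in the SMB56-shSufu DMSO libraries. Under mitochondrial scaling all 30 higher calls turned lower (0 higher, 49 lower), and the median of all genes was -1.23; the part of this shift in the result was not tested. Under ribosomal protein scaling 12 genes were called higher, and without SMB56 DMSO replicate 1 or 2 the number called higher was 19 and 17. The number called lower was 9 without SMB56-shSufu DMSO replicate 1.

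**Figure D5:**
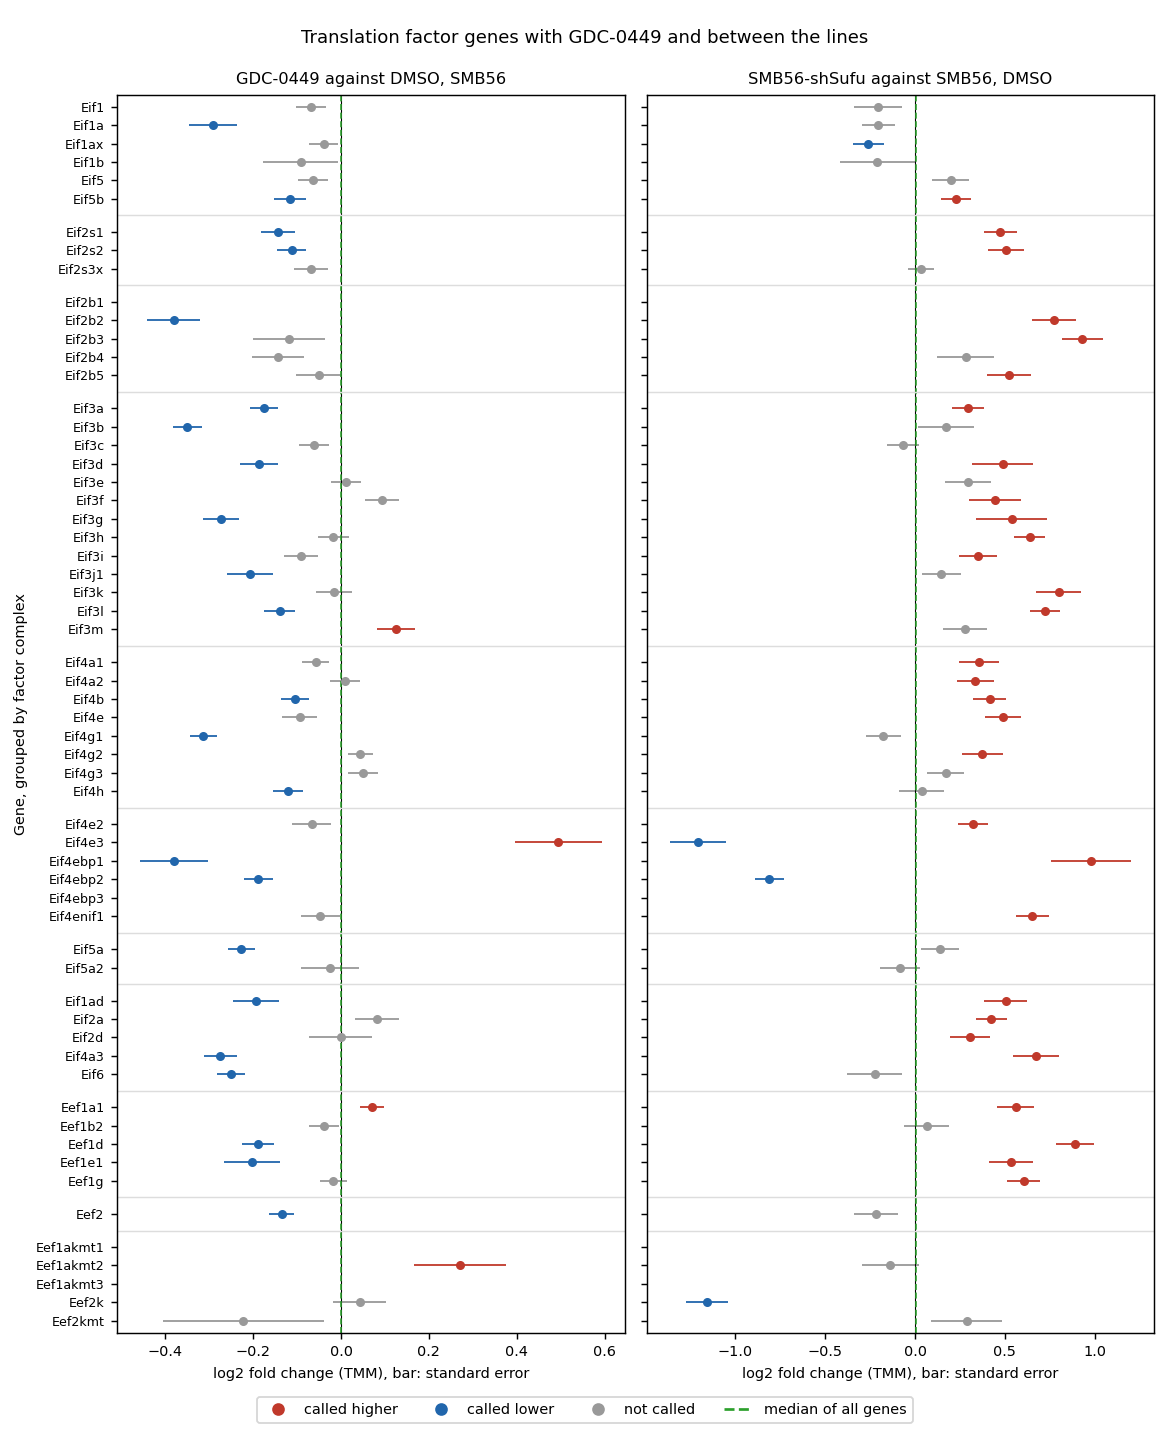
Log2 fold change (x axis, TMM scale) of each factor gene with GDC-0449 against DMSO in SMB56 (left) and of SMB56-shSufu against SMB56 under DMSO (right), grouped by complex; points are edgeR estimates, bars standard errors, colors the call, and the dashed line the median of all genes. The x axes differ: folds lie between -0.38 and 0.49 on the left and between -1.21 and 0.98 on the right, where under mitochondrial scaling all higher calls turned lower.

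A list of 37 other translation genes (eIF2 kinases and phosphatase partners, poly(A)-binding proteins and their partners, release, recycling and mTOR effector genes) was read beside the factors. With THZ1, 11 of 30 measured genes were called higher and 17 lower in SMB56, and 14 and 12 of 37 in SMB56-shSufu, where 91.9% and 61.9% of all genes were called. The genes of highest fold were Ppp1r15a, the stress-induced subunit that directs the phosphatase to eIF2 alpha, with 2.34 ± 0.087 (edgeR adjusted p = 1.92e-16) and 2.32 ± 0.16 (edgeR adjusted p = 3.38e-07), Eif2ak3 (the kinase PERK) with 1.496 ± 0.072 (edgeR adjusted p = 1.70e-14) in SMB56 and Paip2b, an inhibitor of poly(A)-binding protein, with 1.40 ± 0.15 (edgeR adjusted p = 7.01e-06) in SMB56-shSufu. Mitochondrial scaling reversed the last 2 but not Ppp1r15a. The lowest were Eefsec, the selenocysteine elongation factor, with -1.43 ± 0.17 (edgeR adjusted p = 6.09e-08) and Gtpbp2, a GTPase of ribosome rescue, with -1.29 ± 0.070 (edgeR adjusted p = 1.16e-13) in SMB56. In SMB56-shSufu they were the ATPase Abcf3 with -1.41 ± 0.15 (edgeR adjusted p = 8.18e-06) and the S6 kinase Rps6kb2 with -1.05 ± 0.16 (edgeR adjusted p = 8.15e-05). With GDC-0449, where 36.3% of all genes were called, 7 of 34 were called higher and 14 lower. Gspt2 had the highest fold, 0.29 ± 0.12 (edgeR adjusted p = 0.0495), and Eif2ak4 the lowest, -0.29 ± 0.088 (edgeR adjusted p = 0.01). With 1 library left out they ranged from 0.23 to 0.35 and from -0.32 to -0.26, and neither call held throughout. Next to these extremes stood the poly(A)-binding protein Pabpc4 at -0.28 ± 0.038 (edgeR adjusted p = 9.68e-07). On the higher side it was Paip2, a repressor of such proteins, at 0.27 ± 0.037 (edgeR adjusted p = 1.06e-06). Between the lines under DMSO 10 of 34 were called higher and 6 lower (51.2% of all genes called), and 2 and 1 of 30 for the difference of the THZ1 effects (18.3%).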

How the data were processed

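Bulk RNA-seq of 10 libraries (5 groups of 2) was deposited as 3 gene tables. Per the submitters' processing notes STAR 2.5.3a, Cufflinks 2.2.1, DESeq2 1.20.0 and hg19 were used, with no roles given; hg19 is a human build while the gene IDs are mouse Ensembl IDs. The deposited read counts per gene are the authors' and are not normalized. The deposited FPKM values were computed by the authors per library. The adjusted p-values in the authors' tables were used only to see how genes were selected. The SMB56 DMSO counts were the same in both SMB56 tables (0 values differed).

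Counts were tested with edgeR 4.0.16 (quasi-likelihood, Benjamini-Hochberg over all genes of a fit, threshold 0.05) in R 4.3.3, on TMM factors over the 7244 genes in all 3 tables, with the 2 groups compared or the 4 groups of a cross-line comparison. Scripts were tested on simulated data. Alternatives were DESeq2 1.42.0, limma 3.58.1 on log2(FPKM + 0.1), other scalings, no filter, 1 fit of all libraries, a replicate block and leaving out each library. The factor genes were matched by symbol and, for 1 gene listed under an older symbol, by ID. Named with values were paralog sets, the highest and lowest gene of each complex with THZ1, and the 4 highest and 4 lowest of each other comparison. The members and lists were chosen with earlier results of these data known. Promoter sequences are RefSeq's (GRCm38.p6). The result of 1 marker list is not reported here.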

Additional observations from a re-analysis of the deposited data

Results flagged for a closer look

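For 10 factor genes, 2 more positive and 8 more negative, the effect of THZ1 differed between SMB56 and SMB56-shSufu in a test of the difference itself (edgeR interaction over 4 groups of 2 libraries, SMB56-shSufu minus SMB56), and 6 of them are given here. The difference was -0.82 for Eif2b1 and -0.67 for Eif3h. For the elongation genes Eef1a1 and Eef1b2 it was -0.82 and -0.73. Differences above 0 were seen for Eif4ebp2, at 0.52, and for Eef2k, at 1.14. Of these 6 genes 5 lost their call when 1 library was left out, Eef2k being the exception. Under ribosomal protein scaling 0 of the 8 more negative calls stayed and 4 changed sign. The lines were counted in separate tables of unlike depth, which cannot be told apart from the line. The SMB56 THZ1 table had also been selected on its outcome, so the genes tested were chosen on the THZ1 effect in SMB56.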

How the results depend on the processing

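Under mitochondrial scaling the numbers of factor genes called higher and lower were 1 and 46 with THZ1 in SMB56, 0 and 54 with THZ1 in SMB56-shSufu, 1 and 41 with GDC-0449, 1 and 0 for the difference of the THZ1 effect between the lines and 0 and 49 between the lines under DMSO. Under ribosomal protein scaling the numbers of factor genes called higher and lower were 3 and 35 with THZ1 in SMB56, 4 and 19 with THZ1 in SMB56-shSufu, 2 and 16 with GDC-0449, 20 and 0 for the difference of the THZ1 effect between the lines and 12 and 5 between the lines under DMSO. Scaled by library size alone the numbers of factor genes called higher and lower were 14 and 29 with THZ1 in SMB56 and 1 and 33 with THZ1 in SMB56-shSufu. With TMM over the genes of each fit the numbers of factor genes called higher and lower were 2 and 26 with GDC-0449. With limma on log2(FPKM + 0.1) the numbers of factor genes called higher and lower were 4 and 35 with THZ1 in SMB56, 1 and 39 with THZ1 in SMB56-shSufu and 0 and 5 with GDC-0449. With DESeq2 the numbers of factor genes called higher and lower were 1 and 19 with GDC-0449. With all 10 libraries in 1 fit the numbers of factor genes called higher and lower were 0 and 0 with GDC-0449. Leaving out 1 library at a time gave 19 to 22 higher and 16 to 18 lower with THZ1 in SMB56, 7 to 19 higher and 9 to 19 lower with THZ1 in SMB56-shSufu, 1 to 3 higher and 18 to 25 lower with GDC-0449, 1 to 6 higher and 0 to 18 lower for the difference of the THZ1 effect between the lines and 17 to 37 higher and 3 to 9 lower between the lines under DMSO. The libraries share replicate numbers only: deviations from the group mean of same-numbered libraries correlated at 0.0014, 0.113, 0.046 and 0.163 over 7244 genes, with 2 pairs a comparison. With the replicate number as a block (pairing), 20 higher and 18 lower calls were made with THZ1 in SMB56, 16 higher and 16 lower calls were made with THZ1 in SMB56-shSufu, 5 higher and 26 lower calls were made with GDC-0449, 4 higher and 9 lower calls were made for the difference of the THZ1 effect between the lines and 30 higher and 3 lower calls were made between the lines under DMSO. The comparisons across the lines were not run with limma on FPKM, since those tables were scaled separately by the authors. The alternatives for the genes of the other translation list that the text names were chosen after seeing the data. Removing the filter on low counts changed no count of calls by more than 1.5 times. With 2 libraries a group, small changes are the ones that depth and spread limit most.

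The genes listed in this paragraph are those the text names whose value passed the test on the scale of the main values or under the alternative; values that passed neither also crossed 0 in places, also when 1 library was left out. Over all factor genes called higher with THZ1 in SMB56, the sign changed for 2 of 20 with TMM over the genes of the fit and for 13 of 20 under ribosomal protein scaling, and it changed for 4 of the 8 more negative calls of the difference of the THZ1 effect under ribosomal protein scaling. Under mitochondrial scaling the named genes whose values changed sign with THZ1 in SMB56 were Eif1a -0.75, Eif1ax -0.98, Eif5b -0.56, Eif2s3x -0.64, Eif2b3 -0.67, Eif3b -0.52, Eif3h -0.47, Eif4e -1.36, Eif4g2 -0.37, Eif4e3 -0.34, Eif5a -0.79, Eif5a2 -0.69, Eef1a1 -0.62, Eef1b2 -0.58, Eef2 -0.85 and Eif2ak3 -0.022. Under mitochondrial scaling the named genes whose values changed sign with THZ1 in SMB56-shSufu were Eif1a -0.59, Eif1ax -1.22, Eif1b -1.42, Eif5b -1.04, Eif2s3x -0.85, Eif2b3 -0.92, Eif3b -0.89, Eif3h -1.06, Eif3j1 -1.36, Eif4a2 -1.39, Eif4g1 -1.03, Eif4g2 -0.60, Eif4e3 -0.068, Eif4ebp2 -1.37, Eif5a -0.69, Eif5a2 -0.97, Eif4a3 -1.29, Eef1a1 -1.35, Eef1b2 -1.22, Eef2 -0.87, Eef2k -1.11 and Paip2b -0.054. Under mitochondrial scaling the named genes whose values changed sign with GDC-0449 were Eif3m -0.0014 and Eef1a1 -0.054. Under mitochondrial scaling the named genes whose values changed sign between the lines under DMSO were Eif2s3x -1.20, Eif2b3 -0.28, Eif3j1 -1.06, Eif3k -0.45, Eif4a1 -0.86, Eif4a2 -0.88, Eif4e -0.72, Eif4g2 -0.83, Eif4g3 -1.06, Eif4e2 -0.90, Eif4ebp1 -0.32, Eif5a -1.07, Eif4a3 -0.52, Eef1a1 -0.67 and Eef1d -0.32. Under ribosomal protein scaling the named genes whose values changed sign with THZ1 in SMB56 were Eif1a -0.16, Eif1ax -0.39, Eif2s3x -0.055, Eif2b3 -0.080, Eif4e -0.78, Eif5a -0.20, Eif5a2 -0.10, Eef1a1 -0.030 and Eef2 -0.26. Scaled by library size alone the named genes whose values changed sign with THZ1 in SMB56 were Eif1ax -0.065 and Eif4e -0.46. Scaled by library size alone the named genes whose values changed sign with THZ1 in SMB56-shSufu were Eif5b -0.12, Eif3h -0.14, Eif3j1 -0.41, Eif4a2 -0.45, Eif4g1 -0.096, Eif4ebp2 -0.45 and Eif5a2 -0.070. With TMM over the genes of each fit the named genes whose values changed sign with THZ1 in SMB56 were Eif4e -0.097. With limma on log2(FPKM + 0.1) the named genes whose values changed sign with THZ1 in SMB56 were Eif1a -0.039, Eif1ax -0.54, Eif2b3 -0.55, Eif4e -0.98, Eif5a -0.070, Eif5a2 -0.013 and Eef2 -0.16. With limma on log2(FPKM + 0.1) the named genes whose values changed sign with THZ1 in SMB56-shSufu were Eif1ax -0.72, Eif5b -0.23, Eif2s3x -0.17, Eif2b3 -0.71, Eif3b -0.016, Eif3h -0.40, Eif3j1 -0.57, Eif4a2 -0.68, Eif4g1 -0.39, Eif4ebp2 -0.71, Eif5a -0.016, Eif5a2 -0.39, Eef1b2 -0.64, Eef2 -0.23 and Eef2k -0.97.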
